A study of Mus musculus with 18 samples.

Results

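Ribosomal protein genes were taken as those whose symbol is Rps or Rpl with a number and an optional ending a, x or l, together with Rplp0, Rplp1 and Rplp2. The rule found 82 of the 24614 genes with summed transcripts, carried by 473 transcripts. Of the 82, 29 encode core proteins of the small (40S) subunit, 43 core proteins of the large (60S) subunit and 3 the acidic stalk of the large subunit. The other 7 are paralogs or paralog-like loci, namely Rps27l, Rps4l, Rpl3l, Rpl10l, Rpl39l, Rpl6l and Rpl32l. Of these, Rps4l is annotated as a transcribed processed pseudogene, and Rpl6l and Rpl32l as processed pseudogenes. The members lie on 19 chromosomes, and 14 of them are on chromosome 7. RNA was sequenced from conventional dendritic cells (cDC) of C57BL/6 mouse spleen, in 18 libraries that form 6 groups of 3. Each group is wild type (WT) or deficient in the membrane protease ADAM10 (KO), and holds CD4+ cDC2, cDC2 with neither CD4 nor CD8 (written CD4- here) or CD8+ cDC1, all sorted as living CD11c+MHCII+ cells. Neither the age of the mice nor the way ADAM10 was removed is given in the labels, and no group is described as treated. The labels number the samples of a group but do not say that they came from separate animals, and the p-values then rest on a spread between libraries that can be technical.

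A ribosome is built from a small subunit, which reads the messenger RNA, and a large subunit, which joins the amino acids, and each subunit holds ribosomal RNA and a fixed set of proteins. Cells make these proteins in matched amounts, and many of their messenger RNAs start with a tract of pyrimidines (the TOP motif), through which mTORC1 and the RNA-binding protein LARP1 control their translation. Myc raises the transcription of genes for ribosome production, and the Mxd proteins compete with it for their shared partner Max. Genes of this family have left many processed pseudogenes in the mouse genome, which resemble the parent messenger RNA closely.

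The start regions of the members are shown because the transcripts moved together between the genotypes. RefSeq start sites (build GRCm38.p6) were matched by symbol for 60 of the 82 members. A tract that begins with C and goes on with at least 4 pyrimidines lay exactly at the start in 23.3% of the 60 members and in 3.01% of all 27025 genes with a start region. Within 5 bases of the start, read on the gene's own strand, such a tract was found in 48.3% of the members and in 21.2% of all genes. The letters CCGGAAG, the core that ETS factors bind, occurred on either strand between 250 bases before and 50 after the start in 40% of the members and in 9.93% of all genes. On the reverse strand these letters read CTTCCGG and can overlap a pyrimidine tract. Rps24 and Rpl22 stand here for members that were higher in KO cells of every population, Rpl28, Rpl31 and Rpl19 for members whose KO effect differed between populations, Rpl34 and Rps2 for members that passed in no population, and Rps15a for an abundant one. Each window runs from 15 bases before to 15 bases from the start, on the gene's strand, and capitals mark the pyrimidine tract, which the Rpl22 window lacks. Their positions are Rps24 chr14:24490663-24490692 (plus strand), Rpl22 chr4:152325711-152325740 (plus strand), Rpl28 chr7:4792950-4792979 (plus strand) and Rpl31 chr1:39367836-39367865 (plus strand). The others lie at Rpl19 chr11:98026695-98026724 (plus strand), Rpl34 chr3:130730384-130730413 (minus strand), Rps2 chr17:24720048-24720077 (plus strand) and Rps15a chr7:118116133-118116162 (minus strand).
Rps24: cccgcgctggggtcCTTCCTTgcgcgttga
Rpl22: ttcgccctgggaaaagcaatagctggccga
Rpl28: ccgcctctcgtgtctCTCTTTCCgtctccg
Rpl31: cttcctcctcgcCTCCCCgtgacccggaag
Rpl19: tgaccaaacgCCCTCactgcgcatgtgcgc
Rpl34: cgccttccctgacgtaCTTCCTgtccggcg
Rps2: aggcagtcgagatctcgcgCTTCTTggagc
Rps15a: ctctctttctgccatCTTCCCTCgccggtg

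The KO effect was set beside the presence of a tract within 5 bases of the start, paralogs included. This wider definition takes in tracts that end before the start, as in Rpl19. The 14 members with a tract exactly at the start were not summarised apart. Of the 28 tested members with a tract within 5 bases, 7 were called higher in KO cells of all 3 populations and the median of their mean log2 KO effect was 0.37. Of the 29 tested members without it, 20 were called in all 3 populations and the median was 0.41. No test was made of this difference, and a start site in RefSeq need not be the start used in these cells.

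Library totals ran from 12358884 to 19557469 estimated counts. Adam10 itself was lower in every KO library (28.7 to 47.4 CPM, counts scaled to library size) than in any WT library of its population (56.97 to 138 CPM over all WT libraries), with log2 differences of -1.18, -1.25 and -1.15 in CD4+, CD4- and CD8+ cells (adjusted p = 0.0005, 0.000552 and 0.00187). The sum of 9 cDC1 markers was 5885 to 6942 CPM in WT CD8+ and 6632 to 7054 CPM in KO CD8+ libraries, against 283 to 318 CPM in WT CD4+ and 730.2 to 911 CPM in WT CD4- libraries. The sum of 8 cDC2 markers was 1978 to 2024 CPM in WT CD4+, 1057 to 1295 CPM in WT CD4- and 133 to 201 CPM in WT CD8+ libraries. In KO libraries the cDC2 sum was 2464 to 2862 CPM in CD4+, 1708 to 2026 CPM in CD4- and 33.9 to 56.6 CPM in CD8+ cells. The cDC1 sum was 379 to 477 CPM in KO CD4+ and 948 to 1317 CPM in KO CD4- libraries. The populations carried the markers of their labels in both genotypes, at levels that moved with the genotype. Both lists include a gene that defines the groups, Cd8a or Cd4.

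By TPM, a transcript abundance that corrects for transcript length and library size, the 5 members with the highest mean level over the 18 libraries were Rpl13a (24954 TPM), Rps15a (12363 TPM), Rpl18 (10371 TPM), Rps27 (4745 TPM) and Rpl6 (4576 TPM). These 5 values rest mainly on a very short annotated transcript. For Rpl13a, 83.1% of the TPM came from a processed transcript of 176 nt that held 11.9% of its counts. For Rps15a and Rpl18 the leading transcripts were 250 nt and 254 nt long and held 98.2% and 58.8% of the gene's TPM. A retained-intron transcript led Rps27 (279 nt, 96.01% of its TPM) and Rpl6 (284 nt, 72.2%). The order of these 5 therefore moves with the assignment of reads to short transcripts. Rplp1 averaged 4451 TPM, all of it on 1 transcript of 499 nt.

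At the low end stood the paralogs and a pair of core genes. Rpl10l, a copy of Rpl10 used in the testis, held 1 count in all 18 libraries together. Rpl3l, the copy of Rpl3 made in heart and skeletal muscle, held between 0 and 4 counts per library, and Rpl32l between 0 and 10.8 estimated counts. These 3 members did not pass the filter on low counts, and the other 79 were tested. Mean levels were 0.566 TPM for Rpl6l, 0.748 TPM for Rpl39l, 5.13 TPM for Rps4l and 184 TPM for Rps27l, against 4576 for Rpl6, 1313 for Rpl39, 1743 for Rps4x and 4745 for Rps27. Rpl5, which with Rpl11 carries the 5S ribosomal RNA into the large subunit, averaged only 6.75 TPM, and Rpl12, at the base of the stalk, 10.4 TPM.

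The low values of Rpl5 and Rpl12 went with counts on near-identical genes elsewhere. A copy was defined as a transcript of another gene that shares at least 50% of its 31-base words with a member, and 286 such genes were found for 66 members. Copies held 24.6% of the combined counts of members and copies over the 18 libraries. Rpl5 itself averaged 191 counts per library and its copies 34118, most of them on Gm15500 (20005 counts). Rpl12 averaged 280.1 counts and its copies 26687, most on Gm10275 (19779 counts). In all, 23 members had more than 50% of the combined counts on copies, among them Rps23 (79.6%), Rpl27a (76.2%), Rpl36a (74.7%) and Rps27 (65.5%). Reads that match a gene and its copy equally cannot be told apart, so the level of such a member depends on how Salmon divided them. Rps24 and Rpl36 had under 1% of the combined counts on copies (0.1% and 0.768%), and Rpl22 had no copy by this definition.

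**Figure D1:**
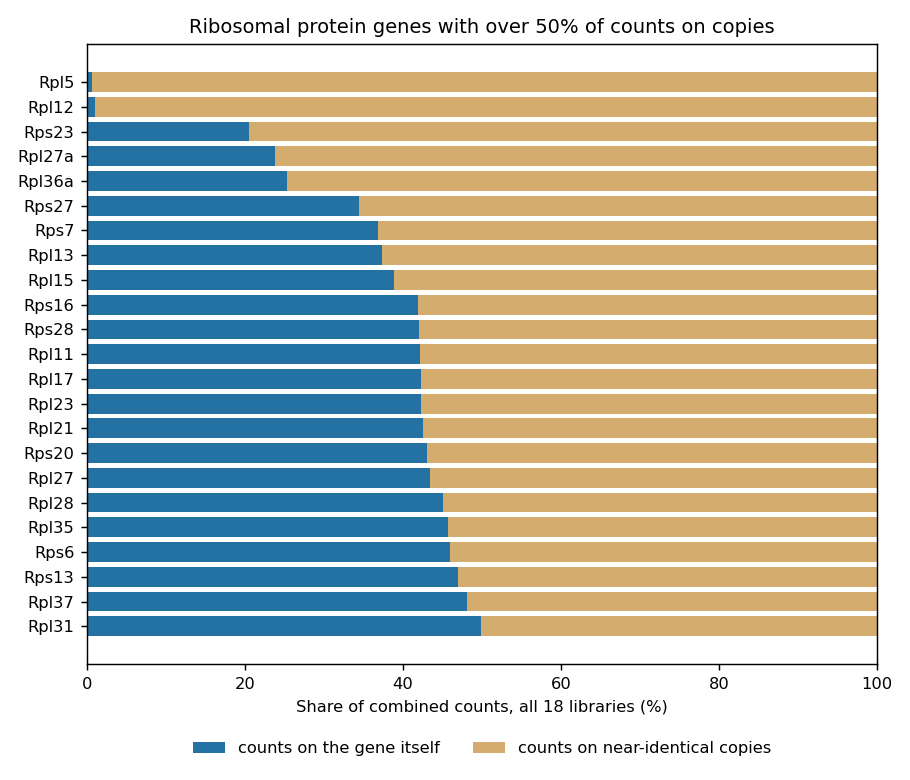
Share of the combined counts (%) that fell on each gene itself (blue) and on its near-identical copies (tan), over all 18 libraries, for the 23 members with more than 50% on copies. Rpl5 and Rpl12 at the top have 99.4% and 98.96% of their counts on copies.

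In each population the KO libraries gave a larger share of their RNA to ribosomal protein genes. In CD4+ cells the 82 members held 8.87, 9.09 and 8.8% of the counts in the WT libraries and 10.1, 10.6 and 9.59% in the KO libraries. In CD4- cells the shares were 8.85, 8.09 and 7.77% in WT and 9.79, 10.1 and 10.1% in KO libraries, and in CD8+ cells 8.91, 8.85 and 8.78% and 10.8, 10.95 and 9.9%. The lowest KO library lay above the highest WT library in each population, and the WT CD4- libraries were the most spread. The group means were 8.92% ± 0.152 in WT against 10.1% ± 0.504 in KO CD4+ cells, 8.24% ± 0.556 in WT against 9.99% ± 0.175 in KO CD4- cells and 8.85% ± 0.066 in WT against 10.5% ± 0.564 in KO CD8+ cells (SD, n = 3). The differences of 1.18, 1.75 and 1.69 percentage points each had p = 0.1 in a two-sided exact permutation test, the smallest p that 3 against 3 libraries allow. With the copies added, the shares were 11.9% ± 0.233 in WT against 13.5% ± 0.67 in KO CD4+ cells, 10.8% ± 0.793 in WT against 13.2% ± 0.164 in KO CD4- cells and 11.8% ± 0.0255 in WT against 13.9% ± 0.838 in KO CD8+ cells, again without overlap (exact p = 0.1 each). Both subunits took part. Core proteins of the small subunit held 3.48% ± 0.242 in WT against 4.26% ± 0.088 in KO CD4- cells, and those of the large subunit 4.00% ± 0.25 in WT against 4.77% ± 0.0811 in KO CD4- cells. In such bulk samples fewer cells of a type and less RNA per cell cannot be told apart.

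**Figure D2:**
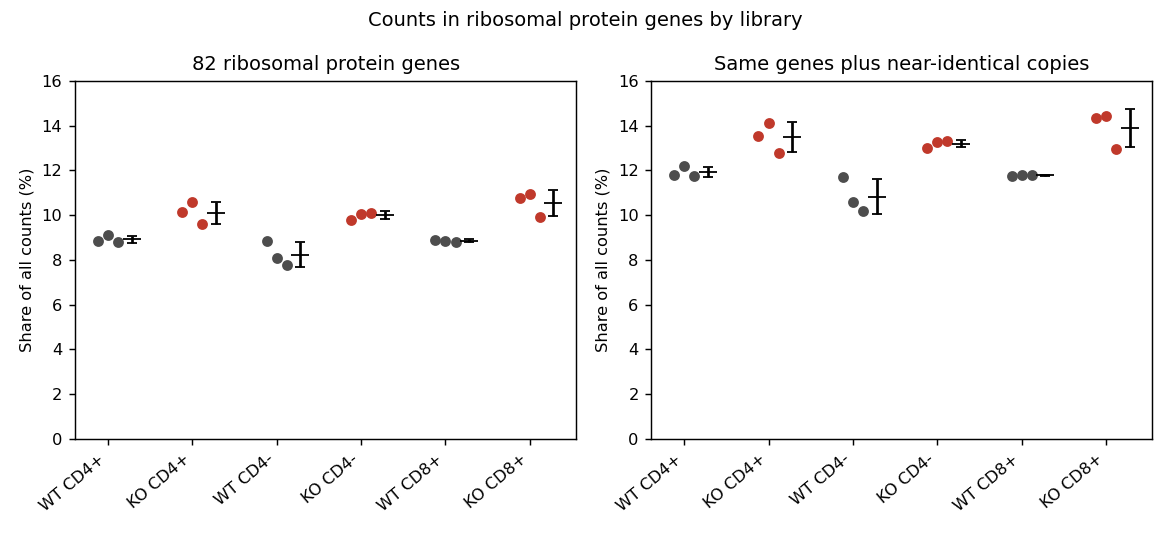
Share of all estimated counts (%, vertical axis) held by the 82 ribosomal protein genes (left) and by the same genes with their near-identical copies (right) in the 6 groups; points are the 3 libraries of a group, grey for WT and red for KO, and bars show the mean ± SD. Every KO library lies above every WT library of the same population in both panels.

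Compared gene by gene, most tested members were called higher in KO cells and none was called lower. In CD4+ cells 50 of the 79 tested members rose and 0 fell, with a median log2 KO effect of 0.30. Over all 13381 genes tested in that comparison, 18.5% were called higher and 16.6% lower, with a median of 0.02. In CD4- cells 67 members rose and 0 fell, with a median of 0.48, against 14.6% higher, 11.3% lower and a median of 0.02 over all genes. In CD8+ cells 55 rose and 0 fell, with a median of 0.39, against 7.01% higher, 8.68% lower and a median of 0.00 over all genes. The rises were small, between 1.17-fold and 1.76-fold for called members in CD4+ cells, 1.18-fold and 1.69-fold in CD4- cells, and 1.19-fold and 1.5-fold in CD8+ cells. In all, 39 members rose in all 3 populations, 25 in 2, 5 in 1 and 10 in none. With the counts of copies added, the members called higher numbered 55, 74 and 61 in CD4+, CD4- and CD8+ cells, and 0 fell.

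The number of calls depended on the scaling of the libraries. On log2(TPM + 1) values without scaling between libraries, 16 of 77 members rose in CD4+, 32 in CD4- and 23 in CD8+ cells, and 1 fell in CD4- cells. That scale moved the median of all genes to -0.13, -0.22 and -0.16, and the members' median lay 0.28, 0.42 and 0.37 above it. Under every alternative run, left-out libraries included, the members' median lay above that of all genes, by 0.14 to 0.31 in CD4+, 0.22 to 0.53 in CD4- and 0.22 to 0.45 in CD8+ cells. Leaving out WT CD4+ replicate 3 left 31 calls in CD4+ cells, and leaving out KO CD8+ replicate 2 left 36 in CD8+ cells.

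Genes listed as markers of other cells moved with the genotype beside these rises. The sum of 10 NK cell markers was 521 to 1023 CPM in WT against 185 to 261 CPM in KO CD4- libraries, and that of 10 T cell markers 306 to 532 and 32.01 to 76.97 CPM, with no marker of either list at 0 in these groups. In the CD4- comparison 9 of the 10 NK cell markers and all 10 T cell markers fell. In CD8+ libraries the NK cell sum was 82.04 to 109.8 CPM in WT against 16.7 to 26.7 CPM in KO, and that of 6 erythroid markers 63.3 to 82.9 and 143 to 290.3 CPM. In CD4+ libraries 8 monocyte markers summed to 2868 to 3138 CPM in WT against 11393 to 14784 CPM in KO, and 7 of them rose. The monocyte sum was 3064 to 3462 CPM in WT against 8342 to 10726 CPM in KO CD4- libraries, where 6 of the 8 rose and 1 fell, and 1119 to 1416 CPM in WT against 1700.2 to 1945 CPM in KO CD8+ libraries, where 2 rose and 2 fell. The T cell sum was 28.2 to 61.8 CPM in WT against 4.42 to 16.1 CPM in KO CD8+ libraries, and that of 8 B cell markers 38.2 to 54.2 and 10.8 to 18.2 CPM. The B cell sum went the other way in CD4+ libraries, at 51.1 to 56.8 CPM in WT against 65.9 to 95.0 CPM in KO. In CD4- libraries it was 55.5 to 75.5 and 50.2 to 69.3 CPM, with overlap. For 6 markers of plasmacytoid dendritic cells the sum was 370.3 to 408 CPM in WT against 571 to 699.9 CPM in KO CD4+ libraries, 391 to 473 and 618 to 710.0 CPM in CD4- libraries, and 364 to 514 and 198 to 271 CPM in CD8+ libraries. In CD4+ libraries the NK cell sum was 144 to 153 CPM in WT against 82.3 to 112 CPM in KO, and the T cell sum 69.99 to 88.8 and 27.8 to 44.4 CPM. The 10 red pulp macrophage markers summed to 628 to 695 and 1049.9 to 1179 CPM in CD4+ libraries, and the erythroid sum was 18.4 to 48.7 and 66.4 to 235 CPM. In CD4- libraries the macrophage sum was 351 to 437 and 464 to 570 CPM, and the erythroid sum 36.9 to 78.0 and 33.2 to 205 CPM. The macrophage sum fell in CD8+ libraries, from 85.0 to 119 CPM in WT to 48.3 to 81.7 CPM in KO. In bulk samples, RNA of other cells and expression of these genes by the sorted cells cannot be told apart. The part of either in the rise of ribosomal protein genes was not tested.

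**Figure D3:**
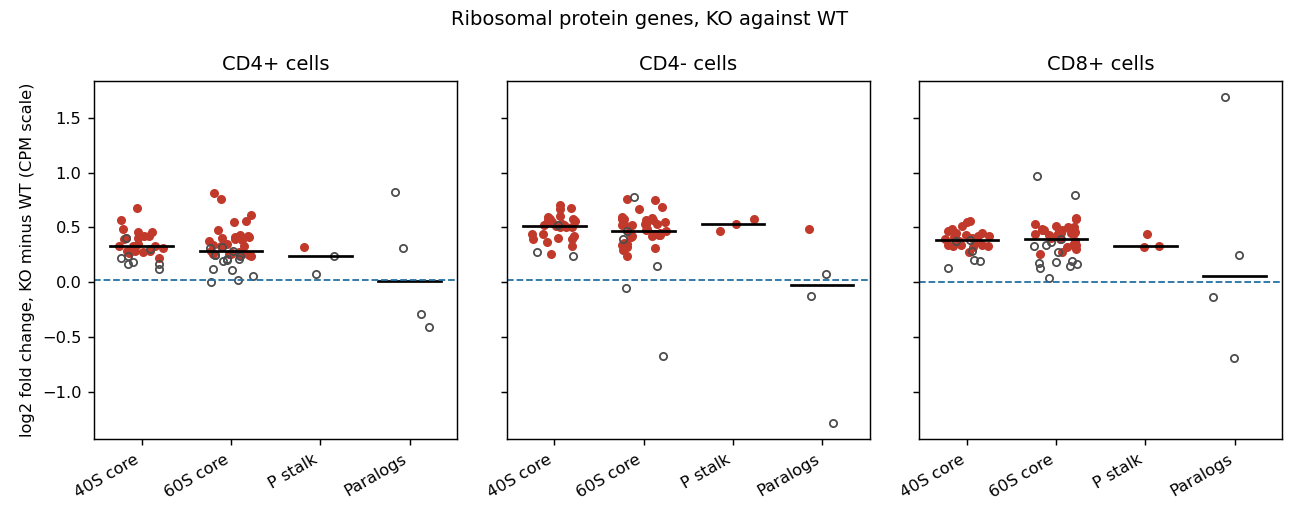
Log2 fold change between KO and WT (vertical axis) of the 79 tested members in each population, grouped into core proteins of the small subunit, of the large subunit, stalk proteins and paralogs; filled red points were called higher, open points were not called, black lines are class medians and the dashed line is the median of all 13381 genes. Medians of the core classes lie between 0.29 and 0.52, all above the dashed line, while the paralogs scatter on either side of it.

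Among the 29 small-subunit members, 21 rose in CD4+, 26 in CD4- and 23 in CD8+ cells, with medians of 0.33, 0.52 and 0.39. Rps24 (ENSMUSG00000025290.17, chromosome 14, 24487125 to 24496959, plus strand), a small-subunit protein mutated in Diamond-Blackfan anaemia, was among the 5 members with the largest mean rise of those called in all populations. It stood at 2081, 2171 and 2136 CPM in WT against 2719.9, 2889 and 2927 CPM in KO CD4+ libraries (log2 0.42 ± 0.09, adjusted p = 0.0019). CD4- libraries held 1881, 1667 and 1549 CPM in WT against 2331, 2744 and 2512 CPM in KO (log2 0.57 ± 0.09, adjusted p = 0.000232). CD8+ libraries went from 1659, 1775 and 1771 CPM in WT to 2661, 2682 and 2101 CPM in KO (log2 0.52 ± 0.09, adjusted p = 0.000891). All KO libraries lay above all WT libraries of the same population. Rps28, which lies where messenger RNA leaves the small subunit, had the largest called small-subunit rise in CD4- cells, from 308, 285 and 264 CPM to 448, 478 and 467 CPM (log2 0.70 ± 0.08, adjusted p = 1.52e-05). In CD8+ cells Rps23, at the decoding centre, and Rps13 had the largest called small-subunit rises, with log2 0.56 ± 0.10, adjusted p = 0.000885 and log2 0.55 ± 0.11, adjusted p = 0.0032.

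Of the 43 large-subunit members, 28 rose in CD4+, 37 in CD4- and 29 in CD8+ cells, with medians of 0.29, 0.47 and 0.40. Rpl22 (ENSMUSG00000028936.15, chromosome 4, 152325742 to 152334071, plus strand), a large-subunit protein that T cell development requires and that has no near-identical copy here, stood at 617, 615 and 599 CPM in WT against 991, 973 and 778 CPM in KO CD8+ libraries. This rise, log2 0.58 ± 0.09, adjusted p = 0.000168, was the largest called in CD8+ cells, and the libraries did not overlap. Rpl22 also rose in CD4+ cells, from 636, 674 and 616 to 835, 782 and 807 CPM (log2 0.33 ± 0.09, adjusted p = 0.00649), and in CD4- cells, from 547, 498 and 484 to 741, 835 and 736 CPM (log2 0.60 ± 0.09, adjusted p = 8.63e-05). Rpl17, which lines the exit of the peptide tunnel, had the largest mean effect among members called in all populations, with log2 0.56 ± 0.14 in CD4+, 0.75 ± 0.14 in CD4- and 0.46 ± 0.14 in CD8+ cells (adjusted p = 0.00447, 0.000725 and 0.033), with 57.7% of the combined counts on copies. Rpl36 rose in all 3 populations too, by log2 0.41 ± 0.13, 0.67 ± 0.13 and 0.44 ± 0.13 in the same order. Of 20 alternatives, the CD8+ call was lost under 7 for Rpl17 and under 6 for Rpl36. In CD4+ cells the call was lost under 5 for Rpl36 and under 4 for Rpl22. Rpl18 was among the 5 largest called rises in CD4- cells (log2 0.68 ± 0.11, adjusted p = 0.000252), and Rpl36a and Rpl37a were among the 5 largest called rises in CD8+ cells (log2 0.58 ± 0.10, adjusted p = 0.000513, and log2 0.53 ± 0.11, adjusted p = 0.00294).

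The stalk of the large subunit, which recruits the translation factors that hydrolyse GTP, rose unevenly. Rplp0, its anchor (ENSMUSG00000067274.10, chromosome 5, 115559467 to 115563727, plus strand), rose in every population, from 4130.1, 3837 and 3467 CPM in WT to 5397, 5879.8 and 5784 CPM in KO CD4- libraries (log2 0.58 ± 0.07, adjusted p = 8.11e-06). Its log2 effect was 0.32 ± 0.07, adjusted p = 0.00111, in CD4+ cells and 0.32 ± 0.07, adjusted p = 0.00228, in CD8+ cells. Rplp1 and Rplp2, which bind it as pairs, rose in CD4- cells (log2 0.53 ± 0.11 and 0.47 ± 0.10) and CD8+ cells (0.44 ± 0.11 and 0.33 ± 0.10). In CD4+ cells neither passed, with log2 0.24 ± 0.11, adjusted p = 0.102 for Rplp1 and log2 0.08 ± 0.10, adjusted p = 0.591 for Rplp2, and their KO and WT libraries overlapped. None of the 3 had a called difference between the KO effects of 2 populations.

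In all, 10 members passed in no population, namely Rpl13, Rpl29, Rpl34, Rpl39l, Rpl41, Rpl5, Rpl6l, Rps2, Rps27 and Rps4l. For several of them the counts of the gene alone varied more than the sum of the gene and its copies. Rpl34 stood at 857, 569 and 360.4 CPM in WT CD4+ and 458, 698 and 629 CPM in KO CD4+ libraries, with overlap. With its copies it held 934, 1042 and 1012 CPM in WT against 1286, 1207 and 1104 CPM in KO CD4+ libraries, with no overlap, and on these sums it rose in CD4+ cells (log2 0.27, adjusted p = 0.0299), CD4- cells (log2 0.55, adjusted p = 0.000287) and CD8+ cells (log2 0.46, adjusted p = 0.0021). Rpl5 stood between 8.31 and 16.5 CPM by itself, without a called change. With copies, Rpl5 held 1913, 1917 and 1919.7 CPM in WT against 2663, 2804 and 2408 CPM in KO CD8+ libraries (log2 0.46, adjusted p = 0.000112), and it rose in CD4+ and CD4- cells as well (log2 0.38, adjusted p = 0.000192, and log2 0.47, adjusted p = 5.67e-05). Rpl12, called by itself in CD4+ cells (log2 0.61 ± 0.17, adjusted p = 0.0119) and in no other population, rose in all 3 populations with copies, by log2 0.43, 0.59 and 0.28 (adjusted p = 0.00112, 0.000141 and 0.045). The CD4+ call of Rpl12 by itself was lost under 4 of 20 alternatives. On the sums, 46 members rose in all 3 populations and 4 in none, and these 4 were Rpl39l, Rpl6l, Rps2 and Rps4l. Of the 39 members called in all 3 populations by their own counts, 33 remained so on the sums.

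Of the 4 paralogs and paralog-like loci tested, 1 was called higher, in 1 population. Rps27l, a copy of Rps27 that p53 induces, rose in CD4- cells, from 58.4, 54.4 and 47.1 CPM in WT to 78.7, 79.3 and 65.1 CPM in KO (log2 0.48 ± 0.12, adjusted p = 0.00645), without overlap. Rps27l lost this call under 6 of 20 alternatives. It did not pass in CD4+ cells (log2 0.31 ± 0.12, adjusted p = 0.0523) or CD8+ cells (log2 0.25 ± 0.12, adjusted p = 0.178). Rps27 itself passed in no population by its own counts, and its libraries were uneven, at 563, 922 and 489.6 CPM in KO CD4+ cells. Rps4l stood at 11.5, 17.5 and 17.2 CPM in WT CD8+ and 6.28, 10.9 and 11.01 CPM in WT CD4+ libraries and was lower in WT CD4+ than in WT CD8+ cells (log2 -0.71 ± 0.23, adjusted p = 0.0198). Rpl39l and Rpl6l reached at most 2.48 CPM in every library and were called in no comparison between KO and WT.

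The KO effect was tested for differences between populations with an interaction term. Between CD4+ and CD8+ cells 5 of 79 members had a called difference, against 22.1% of all genes. Between CD4- and CD8+ cells 1 member was called, against 13.2% of all genes, and between CD4+ and CD4- cells 0, against 3.76% of all genes. In the last of these edgeR called none, DESeq2 called 1, and 16 members had an unadjusted p under 0.05. Leaving out 1 library gave between 3 and 10 calls between CD4+ and CD8+ cells, with 3 without WT CD4+ replicate 1 or 2, WT CD8+ replicate 2 or KO CD8+ replicate 2, and 10 without KO CD8+ replicate 3. The members' median differences were -0.09, 0.10 and -0.17. The family's rise was called different between populations in few members at this number of libraries, which does not show that the effects were equal.

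Rpl28 and Rpl31 of the large subunit had a larger KO effect in CD4+ than in CD8+ cells, called under 16 and 14 of the 26 alternatives. Rpl28 (ENSMUSG00000030432.12, chromosome 7, 4792874 to 4795066, plus strand) had the largest called rise in CD4+ cells, from 424, 439.7 and 423 CPM in WT to 667, 926 and 672 CPM in KO (log2 0.82 ± 0.11, adjusted p = 3.09e-05). It also had the largest called rise in CD4- cells, from 486, 495 and 424 to 762, 766 and 848 CPM (log2 0.76 ± 0.11, adjusted p = 0.000127). CD8+ libraries held 687, 854 and 767 CPM in WT against 965, 959.8 and 876 CPM in KO (log2 0.28 ± 0.11, adjusted p = 0.117), so that every WT CD8+ library lay above every WT library of the other populations. The difference between the CD4+ and CD8+ effects was log2 0.54 ± 0.16, adjusted p = 0.0236, but log2 0.11 (adjusted p = 0.758) with an offset for transcript length and log2 0.15 (adjusted p = 0.614) on log2(TPM + 1). KO CD4+ replicate 2 placed 20.3% of its Rpl28 counts on a transcript of 312 nt, against 30.4% to 39.7% in the other libraries, and without this library the difference was log2 0.36 (adjusted p = 0.0523). The difference also missed the threshold without WT CD4+ replicate 1 (log2 0.53, adjusted p = 0.0503), WT CD8+ replicate 2 (log2 0.46, adjusted p = 0.0682) or KO CD8+ replicate 3 (log2 0.49, adjusted p = 0.0528). Rpl31, near the exit of the peptide tunnel (ENSMUSG00000073702.11, chromosome 1, 39367842 to 39371911, plus strand), held 322, 355 and 353 CPM in WT against 510.3, 741 and 494 CPM in KO CD4+ libraries, of which replicate 2 was the highest. In CD8+ cells it held 405, 548 and 500.1 CPM in WT against 584, 549.8 and 493 CPM in KO, with overlap. The difference of its effects was log2 0.60 ± 0.19, adjusted p = 0.0338, and log2 0.39 (adjusted p = 0.083) without KO CD4+ replicate 2. It missed the threshold without any WT CD4+ replicate, without WT CD8+ replicate 2 or 3 and without KO CD8+ replicate 2 or 3 as well, with log2 values from 0.50 to 0.62 and adjusted p from 0.0531 to 0.0939.

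Rpl19 and Rpl13 had called differences in the other direction. Rpl19 (ENSMUSG00000017404.12, chromosome 11, 98026710 to 98030492, plus strand), at the interface of the subunits, stood at 1277, 1243 and 1163 CPM in WT against 1707, 1757 and 1571 CPM in KO CD8+ libraries, while in CD4+ cells WT (1526, 1611 and 1473 CPM) and KO (1695, 1391 and 1708 CPM) overlapped. The difference was log2 -0.39 ± 0.11, adjusted p = 0.0201, and with copies added log2 -0.25 (adjusted p = 0.105). It also missed the threshold without WT CD4+ replicate 2 (log2 -0.36, adjusted p = 0.0562) or KO CD8+ replicate 2 (log2 -0.36, adjusted p = 0.0540). Rpl19 was called higher in KO CD4- cells too, at 1299, 1240 and 1195 CPM in WT against 1389, 1567 and 1440 CPM in KO. Of 20 alternatives, this CD4- call was lost under 11 and changed sign under 3. Rpl13 (ENSMUSG00000000740.12, chromosome 8, 123102350 to 123105244, plus strand) stood at 1061, 906 and 857 CPM in WT against 547, 675 and 549 CPM in KO CD4- libraries, the only KO values of any member to lie wholly below WT. In CD8+ cells it stood at 456, 519.5 and 659 CPM in WT against 1323, 1433 and 449.9 CPM in KO, where replicate 3 was the lowest of all 6. The difference between the CD4- and CD8+ effects was log2 -1.65 ± 0.46, adjusted p = 0.0252. Without WT CD4- replicate 1, KO CD4- replicate 1 or 3, WT CD8+ replicate 1 or 2, or KO CD8+ replicate 1 or 2 it lay between log2 -1.37 and -1.63 (adjusted p = 0.0515 to 0.0729). With its copies Rpl13 held 2360.3, 2040.0 and 1869 CPM in WT against 1889, 2302 and 2075 CPM in KO CD4- libraries, which overlap, and the difference was log2 -0.76 (adjusted p = 0.144). In the KO CD4- group 71.7% of the combined counts fell on copies, against 54.9% in WT CD4-.

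**Figure D4:**
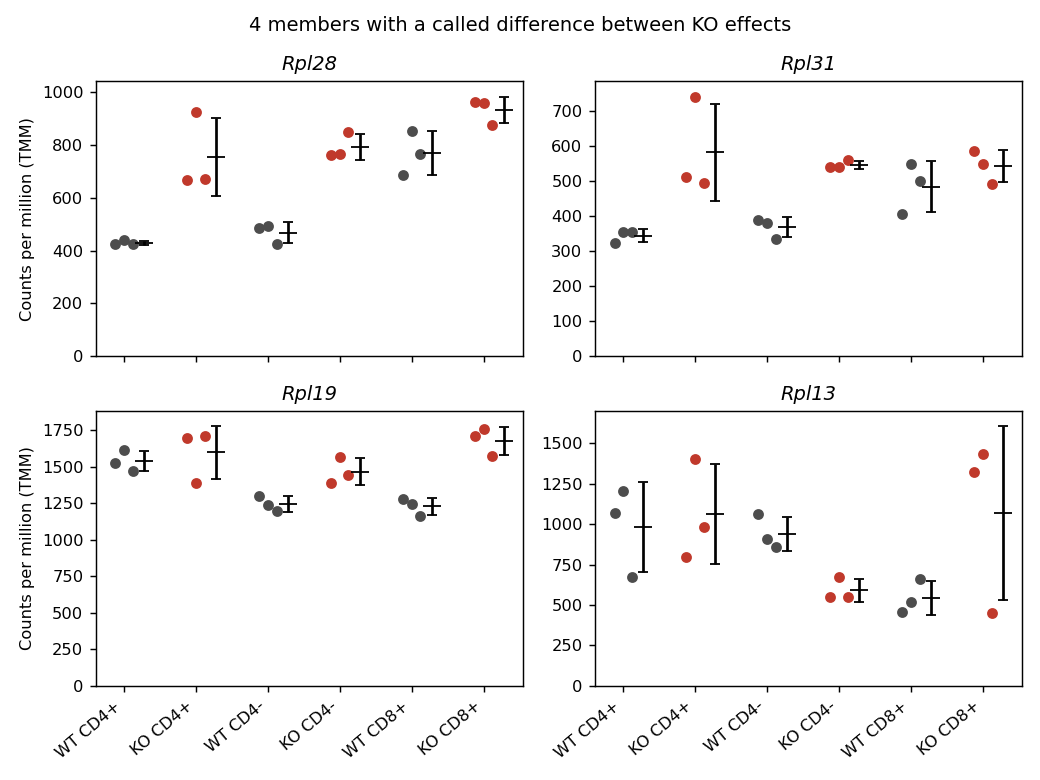
TMM-scaled CPM (vertical axes, from 0) of 4 members with a called difference between KO effects (Rpl28, Rpl31, Rpl19 and Rpl13), in the 6 groups; points are libraries, grey for WT and red for KO, and bars show the mean ± SD of 3 libraries. Rpl28 and Rpl31 rise in CD4+ cells more than in CD8+ cells, Rpl19 rises in CD8+ cells and less in CD4- cells, and Rpl13 is widely spread in KO CD8+ cells.

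Among WT cells, TMM-scaled counts placed CD4- cDC2 lowest, and this order depended on the scale. Of 79 members, 32 were lower and 0 higher in WT CD4- than in WT CD8+ cells (median log2 -0.19), against 21% of all genes lower and 21.9% higher. Against WT CD4- cells, WT CD4+ cells were higher in 26 members and lower in 0 (median 0.21), where 7.12% of all genes were higher and 9.63% lower. Between WT CD4+ and WT CD8+ cells 15 members were higher and 13 lower in CD4+ cells (median 0.03), with 22.6% of all genes higher and 23% lower. The first 2 of these comparisons share the WT CD4- libraries, and both changed with the scale: on log2(TPM + 1) without scaling 8 members were higher and 8 lower in CD4- than in CD8+ cells, and 4 higher and 4 lower in CD4+ than in CD4- cells. That scale moved the median of all genes by 0.15 and -0.14. Members higher in WT CD4+ than in WT CD4- cells numbered 8 and 14 without WT CD4- replicate 3 and 2, and 10 and 16 without WT CD4+ replicate 2 and 1. Members lower in WT CD4- than in WT CD8+ cells numbered 20 without WT CD4- replicate 3 and 21 without WT CD8+ replicate 2. Members higher in WT CD4+ than in WT CD8+ cells numbered 6 without WT CD4+ replicate 2 and 7 without WT CD8+ replicate 3. The WT CD4- libraries also held the most RNA of NK cell markers and T cell markers, 521 to 1023 and 306 to 532 CPM, and the part of this in the lower family level was not tested.

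The members that set WT CD4+ and WT CD8+ cells apart went both ways. Rps9 held 3853, 3941 and 3613 CPM in WT CD4+ and 3208, 2809 and 2772 CPM in WT CD8+ libraries (log2 0.38 ± 0.09, adjusted p = 0.00195), and Rpl23 held 664, 668 and 643 and 473, 495 and 485 CPM (log2 0.44 ± 0.07, adjusted p = 4.38e-05). Rpl13, Rps27 and Rps23 were the others of the 5 with the largest called difference towards CD4+ cells, with log2 0.85 ± 0.32, 0.69 ± 0.25 and 0.46 ± 0.10. Of 20 alternatives, the call was lost under 6 for Rpl13, 4 for Rps27 and 1 for Rps23. Rpl13 and Rps27 had 62.6% and 65.5% of the combined counts on copies. Among those lower in WT CD4+ cells were Rpl28 (log2 -0.84 ± 0.11, adjusted p = 1.32e-05), Rps4l, Rps27l (log2 -0.58 ± 0.12, adjusted p = 0.000699) and Rpl31 (log2 -0.50 ± 0.14, adjusted p = 0.00675). Rpl28 and Rpl31 are also members whose KO effect in CD4+ cells exceeded that in CD8+ cells, and these comparisons share the WT libraries. In WT CD4- against WT CD8+ cells the members called lower by most were Rps4l (log2 -0.78 ± 0.23), Rpl28 (-0.72 ± 0.11), Rps28 (-0.58 ± 0.08), Rplp1 (-0.57 ± 0.11) and Rpl41 (-0.55 ± 0.15). In WT CD4+ against WT CD4- cells Rps27 (0.84 ± 0.25), Rps21 (0.59 ± 0.11), Rplp1 (0.55 ± 0.11), Rplp2 (0.51 ± 0.10) and Rpl39 (0.46 ± 0.10) were the members called higher by most. The Rps27 call in this last comparison was lost under 9 of 20 alternatives. That of Rps4l in WT CD4- against WT CD8+ cells was lost under 6 of 20.

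Among KO cells the populations were set apart by smaller numbers of called members, and the change in number was not tested. Between KO CD4+ and KO CD4- cells 1 member was higher, Rpl23 (819, 786 and 875 against 641, 676 and 671 CPM, log2 0.32 ± 0.07, adjusted p = 0.00647), and 0 were lower, against 3.16% and 4.79% of all genes. KO CD4+ cells were higher than KO CD8+ cells in 7 members and lower in 14 (25.7% and 25.1% of all genes), with a median of -0.05. KO CD4- cells were lower than KO CD8+ cells in 15 members and higher in 0 (22.3% and 24.3% of all genes), with a median of -0.12. Rpl14, a large-subunit protein, was lower in both KO cDC2 populations, at 781, 599 and 781 CPM in KO CD4+ and 712, 823 and 752 CPM in KO CD4- against 1182, 1221 and 1029 CPM in KO CD8+ libraries (log2 -0.67 ± 0.11, adjusted p = 5.42e-05, and log2 -0.58 ± 0.11, adjusted p = 0.000236). Rps26, at the exit of messenger RNA, was lower as well, at 716, 722 and 737 CPM in KO CD4+ and 1007, 1004 and 902 CPM in KO CD8+ libraries (log2 -0.42 ± 0.07, adjusted p = 8.4e-05), and log2 -0.45 ± 0.07, adjusted p = 5.08e-05 for KO CD4- cells. Rps20 followed (log2 -0.38 ± 0.09 and -0.47 ± 0.09), with Rps4l (-0.87 ± 0.24) and Rps27l (-0.52 ± 0.12) in KO CD4+ cells, and Rpl13 (-0.86 ± 0.32) and Rplp1 (-0.47 ± 0.11) in KO CD4- cells. The Rpl13 call was lost under 12 of 21 alternatives, with log2 from -1.22 to -0.49. Its libraries overlapped, at 547, 675 and 549 CPM in KO CD4- and 1323, 1433 and 449.9 CPM in KO CD8+ cells. Higher in KO CD4+ than in KO CD8+ cells were Rps27 (0.89 ± 0.25), Rps19 (0.49 ± 0.11), Rpl30 (0.40 ± 0.15), Rps9 (0.33 ± 0.09) and Rpl23 (0.31 ± 0.07). The Rpl30 call was lost under 7 of 21 alternatives, with log2 from 0.11 to 0.53. Rpl30 held 748, 1233 and 737 CPM in KO CD4+ and 652, 770 and 640 CPM in KO CD8+ libraries, with overlap. Leaving out 1 library changed the number lower in KO CD4- cells to between 8 and 26, with 8 without KO CD4- replicate 1 or 3 or KO CD8+ replicate 1 or 2, and 26 without KO CD8+ replicate 3. Members higher in KO CD4+ than in KO CD8+ cells numbered 3 without KO CD4+ replicate 2 and 4 without KO CD8+ replicate 3.

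**Figure D5:**
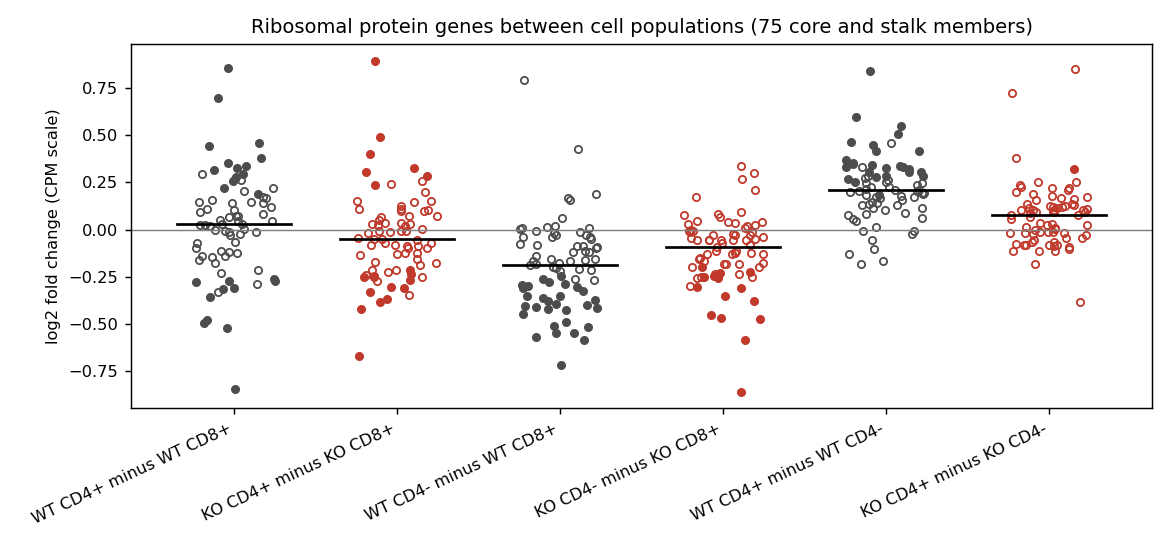
Log2 fold change between cell populations (vertical axis) of the 75 core and stalk members, within WT (grey) and within KO (red); filled points were called, open points were not, and black lines are medians. WT CD4- cells lie lowest, with a median of all 79 tested members of -0.19 against WT CD8+ cells.

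Some ribosomal components are left out by the naming rule, and they and the translation factors are read here against the shares of all genes, of which 18.5% rose and 16.6% fell in CD4+ cells, 14.6% and 11.3% in CD4- cells and 7.01% and 8.68% in CD8+ cells. Of the 8 components outside the rule, 4 rose in CD4+, 6 in CD4- and 4 in CD8+ cells and 0 fell, with medians of 0.31, 0.50 and 0.33. Rpsa, a small-subunit protein also known as the laminin receptor, stood at 2943, 2793 and 2500.4 CPM in WT against 4064, 4659 and 4659 CPM in KO CD4- libraries (log2 0.70 ± 0.07, adjusted p = 2.35e-06), and rose by log2 0.55 ± 0.07 in CD4+ and 0.52 ± 0.07 in CD8+ cells. Rack1, a signalling scaffold on the small subunit, rose in all 3 populations by log2 0.32 ± 0.07, 0.59 ± 0.07 and 0.37 ± 0.07. Fau, a ribosomal protein fused to a ubiquitin-like protein, rose in CD4- and CD8+ cells (log2 0.39 ± 0.08 and 0.49 ± 0.08). Of 34 translation factors, 17 rose and 2 fell in CD4+ cells, 18 rose and 0 fell in CD4- cells, and 8 rose and 0 fell in CD8+ cells (medians 0.21, 0.27 and 0.17). Eef2, the factor that moves the ribosome along, stood at 4645, 4536 and 4414 CPM in WT against 6282, 6571 and 5676 CPM in KO CD4+ libraries (log2 0.45 ± 0.07, adjusted p = 8.86e-05), and rose in CD4- cells by log2 0.61 ± 0.07, adjusted p = 9.67e-06. Eef1b2, an elongation factor subunit, had the largest called rise of the list in CD4- cells (log2 0.62 ± 0.07, adjusted p = 1.16e-05), and Eif3e, a subunit of an initiation factor, in CD8+ cells (log2 0.51 ± 0.07, adjusted p = 4.92e-05). Eif4e, which binds the messenger RNA cap, fell in CD4+ cells (log2 -0.42 ± 0.08, adjusted p = 0.000868).

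Of 40 biogenesis genes, which build ribosomes, 10 rose and 4 fell in CD4+ cells, 8 rose and 2 fell in CD4- cells, and 4 rose and 0 fell in CD8+ cells, with medians of 0.14, 0.06 and 0.05. The shares of all genes that rose were 18.5%, 14.6% and 7.01%, and those that fell 16.6%, 11.3% and 8.68%. Npm1, the nucleolar chaperone nucleophosmin, rose in CD4+ cells (log2 0.31 ± 0.07, adjusted p = 0.00168), CD4- cells (log2 0.41 ± 0.07, adjusted p = 0.00026) and CD8+ cells (log2 0.30 ± 0.07, adjusted p = 0.00496). Proteins of the mitochondrial ribosome form a separate set, of whose 78 genes 3 rose and 2 fell in CD4+, 4 rose and 0 fell in CD4-, and 1 rose and 1 fell in CD8+ cells (medians 0.04, 0.12 and 0.08). Of the 13 genes of the mitochondrial genome 1 rose, in CD4- cells, and 0 fell. Between WT populations, 29 of 40 biogenesis genes were lower and 0 higher in WT CD4+ than in WT CD8+ cells (median -0.37), against 23% and 22.6% of all genes. Polr1a, the largest subunit of RNA polymerase I, which transcribes ribosomal RNA, stood at 29.7, 28.7 and 28.03 CPM in WT CD4+ and 79.01, 89.03 and 77.5 CPM in WT CD8+ libraries (log2 -1.51 ± 0.11, adjusted p = 9.39e-09). In the same comparison 20 of 34 translation factors were lower and 3 higher (median -0.23), and 25 of 78 mitochondrial ribosomal proteins were lower and 1 higher (median -0.20). Eef1b2 was at 900.1, 934 and 929 CPM in WT CD4+ and 2293, 2164 and 2207 CPM in WT CD8+ libraries (log2 -1.27 ± 0.07, adjusted p = 4.79e-10).

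Among 17 genes of mTORC1 and Myc control, a pair passed in every population. Myc, the transcription factor that raises ribosome production, stood at 18.3, 20.7 and 15.7 CPM in WT against 28.2, 33.2 and 31.6 CPM in KO CD4+ libraries, rising in CD4- libraries from 25.7, 24.1 and 23.9 to 32.4, 32.8 and 35.3 CPM, and in CD8+ libraries from 14.5, 20.1 and 18.4 to 32.99, 32.1 and 36.4 CPM. It rose by log2 0.76 ± 0.12, adjusted p = 8.36e-05, in CD4+ cells, log2 0.44 ± 0.12, adjusted p = 0.00998, in CD4- cells and log2 0.94 ± 0.12, adjusted p = 3.96e-05, in CD8+ cells, without overlap in any population. Mxd1, which competes with Myc for Max, stood at 118, 115 and 99.6 CPM in WT against 42.7, 43.2 and 41.2 CPM in KO CD4+ libraries, falling in CD4- libraries from 89.2, 99.1 and 88.1 to 47.6, 52.02 and 42.99 CPM, and in CD8+ libraries from 150.2, 122 and 119.7 to 40.03, 46.2 and 42.03 CPM. Its log2 changes were -1.39 ± 0.10, adjusted p = 1.76e-08, in CD4+ cells, -0.95 ± 0.10, adjusted p = 3.42e-06, in CD4- cells and -1.61 ± 0.10, adjusted p = 2.56e-08, in CD8+ cells, also without overlap. Larp1, which binds the TOP motif, rose in CD4+ cells (log2 0.42 ± 0.07, adjusted p = 0.000221) and CD4- cells (log2 0.36 ± 0.07, adjusted p = 0.00164). Eif4ebp1, an inhibitor of Eif4e, rose in CD4+ cells (log2 0.88 ± 0.25, adjusted p = 0.0102). The whole list had medians of -0.01, 0.01 and -0.01, with 3, 2 and 1 genes higher and 2, 1 and 1 lower, against 18.5%, 14.6% and 7.01% of all genes higher and 16.6%, 11.3% and 8.68% lower. Whether Myc or Mxd1 RNA bears on the level of the ribosomal protein genes was not tested. Only 8 of the genes listed for nonsense-mediated decay and small nucleolar RNA hosts were tested. Of these 0 rose, and Smg6 alone fell, in CD4+ and CD4- cells (log2 -0.39 ± 0.14 and -0.69 ± 0.14). Nothing can be said of the listed genes that were not tested.

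Transcripts annotated as protein coding held 85.00% to 86.4% of the members' counts over the 18 libraries, those with a retained intron 7.47% to 8.57%, and those marked for nonsense-mediated decay 2.88% to 3.41%. In CD4+ cells the protein-coding share was 85.7% ± 0.238 (SD, n = 3, 85.5% to 85.98%) in WT and 85.2% ± 0.136 (SD, n = 3, 85.00% to 85.2%) in KO libraries, without overlap. In CD4- cells the retained-intron share was 8.24% ± 0.0665 (SD, n = 3, 8.2% to 8.32%) in WT and 8.41% ± 0.0467 (SD, n = 3, 8.38% to 8.46%) in KO libraries, also without overlap. In CD8+ cells the retained-intron share was 8.13% ± 0.393 (SD, n = 3, 7.82% to 8.57%) in WT and 7.73% ± 0.418 (SD, n = 3, 7.47% to 8.21%) in KO libraries, with overlap. These shares were not tested.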

How the data were processed

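Polyadenylated RNA from 18 sorted samples was sequenced as single reads, per the labels' protocols. The deposited tables give estimated counts and TPM per transcript, made with Salmon 0.14.1 on build GRCm38 after FastQC 0.11.8, per the submitters' processing notes. Whether the authors' estimated counts used strand is not given in the sources used here, so overlapping genes are uncertain.

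Estimated counts were summed per gene and rounded. For 152 transcripts the tables name no gene; GENCODE M21, which holds 98.8% of the transcripts, supplied 37 of these, and the remaining 115 (up to 0.16% of a library's counts) were dropped. Genes were filtered with filterByExpr (13381 tested), scaled by TMM and tested with edgeR 4.0.16 (quasi-likelihood test, R 4.3.3) in 1 fit of all 6 groups with 12 residual degrees of freedom. Calls have a Benjamini-Hochberg adjusted p under 0.05 over all genes tested. Errors beside log2 values are standard errors taken from the F statistic. CPM are TMM-scaled. Levels between genes use the deposited TPM of the authors, summed per gene. The code was tested on simulated data.

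The members and lists were chosen with earlier results of these data known. Named members were those with the highest and lowest TPM, the 5 largest called rises and falls of each comparison, the 5 largest called in all populations, those removed by the filter and the paralogs, with up to 4 called genes of each further list. Fau, Larp1, Eif4ebp1, Npm1 in CD4+ cells, Rpl34, Rpl29, Rpl5 and Rpl12 with copies, and the genes of the printed windows were chosen after their values were seen. Some members that the rule names are counted but not reported here by name.

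Alternatives were other scalings, filters, tools (DESeq2 1.42.0, limma 3.58.1 on log2 TPM), length offsets, added copies, the replicate number as a block and leaving out each library. Between the 3 libraries of each group, chi-square per gene was 9.43 to 32.4 over 18 pairs, so none was a library deposited again. Deviations of same-numbered libraries correlated above 0.1 in every pair only between KO CD4+ and KO CD8+ (0.15 to 0.18) and between KO CD4- and KO CD8+ (0.22 to 0.26) cells. The range was 0.09 to 0.20 for WT CD4+ with WT CD4- and 0.05 to 0.15 for WT CD4+ with WT CD8+ cells. It was 0.08 to 0.17 for WT CD4- with WT CD8+ and 0.06 to 0.21 for KO CD4+ with KO CD4- cells. In all these pairs each library of the first population correlated most with the same-numbered library of the second. The main fit did not use the number.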

Additional observations from a re-analysis of the deposited data

Results flagged for a closer look

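Members whose KO effect differed between 2 populations by the interaction test (edgeR, adjusted over all genes) include Rpl28, Rpl31, Rpl19 and Rpl13. Between CD4+ and CD8+ cells the difference in log2 KO effect was 0.54 for Rpl28 (adjusted p = 0.0236), 0.60 for Rpl31 (adjusted p = 0.0338) and -0.39 for Rpl19 (adjusted p = 0.0201). Between CD4- and CD8+ cells it was -1.65 for Rpl13 (adjusted p = 0.0252). Of the 26 alternatives, 18 kept the call of Rpl13, 17 that of Rpl19, 16 that of Rpl28 and 14 that of Rpl31.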

How the results depend on the processing

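No member fell in KO cells of any population when single libraries were left out, and the members called higher then numbered 31 to 49 in CD4+, 59 to 67 in CD4- and 36 to 58 in CD8+ cells. The KO minus WT share of counts then ranged from 0.937 to 1.44, 1.52 to 2.06 and 1.48 to 2.01 percentage points. Without the 50 most abundant other genes in the total it was 2.25, 2.83 and 2.54 points, with copies added 2.37 points in CD4- cells, and as a share of TPM 2.28 points in CD8+ cells.

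On log2(TPM + 1) and on log2(TPM + 0.1), 16, 32 and 23 members were higher in KO CD4+, CD4- and CD8+ cells, and without a filter 9, 25 and 10. A single member was lower in KO CD4- cells on all 3 of these scales and in a fit of only the groups compared (1 each). For WT CD4- against WT CD8+ cells the TPM scales gave 8, 8 and 4 higher and 8, 7 and 6 lower. For WT CD4+ against WT CD4- cells they gave 4, 4 and 4 higher and 4, 4 and 3 lower. For KO CD4- against KO CD8+ cells they gave 2, 2 and 2 higher and 4, 4 and 3 lower, and for KO CD4+ against KO CD4- cells 1 and 1 lower on the filtered scales.

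Called differences of the KO effect between CD4+ and CD8+ cells numbered 3 without the low-count filter, 3 on unfiltered TPM, 3 with only the groups compared and 3 on TPM after TMM, and 3 to 10 with 1 library left out. Between CD4- and CD8+ cells they numbered 5 with DESeq2, 5 with the replicate block, 2 with copies named -ps added and 2 with only the groups compared, and 0 to 5 with 1 library left out. Between CD4+ and CD4- cells DESeq2 called 1, and leaving out 1 library gave 0 to 1.

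Members higher in WT CD4- than in WT CD8+ cells numbered 1 with DESeq2's size factors, upper-quartile scaling, no low-count filter, the replicate block or a length offset, and 2 with DESeq2, only the groups compared or TPM after TMM; 1 library left out gave 0 to 2 higher and 20 to 33 lower. Members higher in WT CD4+ than in WT CD4- cells numbered 14 without the filter, 11 with a length offset, 10 on TPM after TMM, and 8 to 27 with 1 library left out. WT CD4+ against WT CD8+ cells gave 6 to 14 higher and 10 to 12 lower with 1 library left out. KO CD4+ against KO CD8+ cells gave 4 higher and 8 lower with only the groups compared, and 3 to 7 higher and 10 to 20 lower with 1 library left out. Members higher in KO CD4- than in KO CD8+ cells numbered 2 with DESeq2's size factors, DESeq2, the replicate block, a length offset, only the groups compared, the block in that fit or TPM after TMM, and 1 with copies named -ps; 1 library left out gave 0 to 1 higher and 8 to 26 lower. KO CD4+ against KO CD4- cells gave 3 higher without the filter and 3 with DESeq2, and 1 to 2 with 1 library left out. With the replicate block 55, 69 and 59 members were higher in KO CD4+, CD4- and CD8+ cells. Same-numbered samples correlated within each genotype, as given above, and the labels do not explain the number. Every such pair correlated above 0.1 only between KO CD8+ and the other KO populations. There the block gave 7 higher and 15 lower for CD4+ against CD8+ cells, and 2 higher and 17 lower for CD4- against CD8+ cells.

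Of 1659 values of named genes under alternatives, 1465 kept direction and side of the threshold, 144 lost and 23 gained the call, and 27 changed sign. The sign changes in Rpl13 were -0.10, -0.10 and -0.10 on the TPM scales and -0.10 and -0.14 without WT CD4+ replicate 3 or KO CD4+ replicate 2 in CD4+ cells, and 0.003442 with copies in CD4- cells. On the TPM scales Rpl19 had -0.11, -0.11 and -0.11 in CD4+ and -0.0804, -0.0804 and -0.0804 in CD4- cells, and Rps27l -0.0673, -0.0675 and -0.0673 in CD8+ cells. Rpl5 had -0.04 and -0.19 without WT CD4+ replicate 1 or KO CD4+ replicate 3, and 0.11 with -ps copies, 0.0086 with a length offset, 0.0136 and 0.0156 without WT or KO CD4- replicate 1, 0.0263 on TPM after TMM and 0.47 with copies in CD4- cells. In CD8+ cells Rpl5 had -0.07, -0.03 and -0.21 without WT CD8+ replicate 2, WT CD8+ replicate 3 or KO CD8+ replicate 1, and Rps27 had -0.0271 without WT CD8+ replicate 1. With 1 library left out, Rpl13 reached up to 0.28 and Rpl5 up to 0.19 in CD4+ cells, and Rpl5 up to 0.22 and Rps27 up to 0.42 in CD8+ cells. The cause of these changes was not tested. Near-identical copies, TPM after TMM and the block within 2 groups were chosen after seeing the data. With 3 libraries a group, members that missed the threshold are not shown to be equal.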

Other observations

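Rpl34 by its own counts followed the replicate number in both genotypes. In WT libraries 1, 2 and 3 it held 857, 569 and 360.4 CPM in CD4+, 799, 443 and 263 CPM in CD4- and 769, 507 and 325 CPM in CD8+ cells. In KO libraries it held 458, 698 and 629, 412, 643 and 607 and 465, 734 and 611 CPM in the same order of populations. With its copies the spread was narrower, for example 813, 907 and 909 CPM in WT CD8+ cells. Rpl29, a large-subunit protein, was highest in library 3 of all 6 groups, where it held 339, 299 and 315 CPM in WT against 389, 687 and 638 CPM in KO CD4+, CD4- and CD8+ cells. Of the 79 tested members, 3 (Rpl29, Rpl34 and Rpl4) had their WT libraries in the same order in all 3 populations, against 7.06% of all genes, and 3 (Rpl21, Rpl34 and Rps9) had so in KO, against 6.31%. These shares of all genes are an observed background and not a rate for unrelated libraries. Same-numbered libraries of a genotype also correlated over all genes tested. The labels do not say what a shared number stands for.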
